A study of Homo sapiens with 47 samples.

Results

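MALAT1, NEAT1, KCNQ1OT1 and TUG1 are long non-coding RNAs grouped here as held in the nucleus. These 4 rows of the count table are described out of 18651 gene rows, of which 17819 had at least 1 count. They were chosen by name. The label rests on earlier work and need not hold equally for all 4, TUG1 in particular. Whole cells were lysed, so where an RNA was in the cell was not measured. All 4 had enough counts (at least 20 in all) to enter the measure of spread, as did 9088 genes.

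The data are counts of unique molecular identifiers (UMIs), random tags that mark single cDNA molecules, from 47 single cells of HEK293, an established human embryonic kidney cell line. The cells came from 1 untreated culture condition in medium with glutamine and serum, were captured on a microfluidic chip and were sequenced in 1 run, and each is called here by the number in its label. Oligo-dT primed the RNA and the 5′ end of the cDNA was kept, with 20000 molecules of ERCC spike-in RNA added per cell. No groups were compared and cells of 1 condition are not replicates, so levels, spread and correlations are given over the 47 cells as a description, with no p-value.

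A nuclear RNA of this kind acts where it stays. MALAT1 gathers in nuclear speckles beside splicing factors, and its mature 3′ end is made by cleavage next to a genome-encoded run of A, with no poly(A) tail added. NEAT1 is the scaffold of paraspeckles: its short form is polyadenylated, while the long form that builds the paraspeckle ends like MALAT1. KCNQ1OT1 is an unspliced antisense transcript of the KCNQ1 locus, made from the paternal chromosome, which keeps neighbouring imprinted genes silent in cis. TUG1 is a spliced RNA, studied as a partner of polycomb proteins.

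Because the assay starts at A-rich RNA and keeps 5′ ends, runs of A and starts of transcription are the sequences that bear on these counts. The longest run of A in a transcript chosen for each gene, from the 17, 8, 1 and 20 that GENCODE gives for MALAT1, NEAT1, KCNQ1OT1 and TUG1 (for NEAT1, 2 transcripts), is shown in capitals with 5 bases on either side, 5′ to 3′ on the RNA strand, written as DNA.
MALAT1: agcttAAAAAAAAAAAAAgcaaa
NEAT1, a spliced transcript of 3441 bases: gttacAAAAAtgctt
NEAT1, the transcript of 22743 bases: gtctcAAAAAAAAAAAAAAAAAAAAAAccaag
KCNQ1OT1: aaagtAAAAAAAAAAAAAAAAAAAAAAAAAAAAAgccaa
TUG1: gctttAAAAAAAAAAAAAAAAAAggctg
The run has 13 bases in MALAT1, with 359 bases of the annotated transcript after it, and belongs to the tract at which the mature RNA ends. It has 22 bases in the longer NEAT1 transcript and 5 in the spliced one, which is not the unspliced short form described above. It has 29 bases in KCNQ1OT1, the longest transcript of the 5 at 91667 bases, which holds 9 runs of at least 12 A. It has 18 bases in TUG1. A run of at least 12 A is in 4.31% of all 206694 transcripts, a share that does not take their length into account. Whether the primer started in these runs was not measured.

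The RefSeq promoter table (build GRCh38.p14) held 2 windows for MALAT1 and 1 for TUG1, each from 250 bases before to 50 after an annotated start. They are shown since 5′ ends were counted for these genes. Capitals mark matches to the motifs searched on both strands. These were the TATA box, read as the letters TATAAA, the CCAAT box, read as written, the GC box, read as GGGCGG, the ETS core, read as CCGGAAG, the cAMP response element, read as TGACGTCA, and the E-box, read as CACGTG. The study aligned to an older build, so the coordinates belong to the sequences and not to the counts.
MALAT1, upstream start, chr11:65497488-65497787, plus strand: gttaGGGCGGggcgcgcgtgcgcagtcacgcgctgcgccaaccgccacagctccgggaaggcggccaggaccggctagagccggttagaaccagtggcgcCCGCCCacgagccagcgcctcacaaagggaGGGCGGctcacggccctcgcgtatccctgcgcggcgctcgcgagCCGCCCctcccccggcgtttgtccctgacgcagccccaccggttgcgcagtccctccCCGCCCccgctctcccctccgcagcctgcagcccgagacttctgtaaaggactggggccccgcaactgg
MALAT1, downstream start, chr11:65498795-65499094, plus strand: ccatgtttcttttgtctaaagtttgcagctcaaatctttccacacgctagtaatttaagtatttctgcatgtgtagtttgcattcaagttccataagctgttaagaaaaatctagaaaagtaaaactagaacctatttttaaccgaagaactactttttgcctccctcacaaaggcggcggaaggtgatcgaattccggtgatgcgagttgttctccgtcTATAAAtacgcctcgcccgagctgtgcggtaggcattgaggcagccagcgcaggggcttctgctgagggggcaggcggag
TUG1, chr22:30969015-30969314, plus strand: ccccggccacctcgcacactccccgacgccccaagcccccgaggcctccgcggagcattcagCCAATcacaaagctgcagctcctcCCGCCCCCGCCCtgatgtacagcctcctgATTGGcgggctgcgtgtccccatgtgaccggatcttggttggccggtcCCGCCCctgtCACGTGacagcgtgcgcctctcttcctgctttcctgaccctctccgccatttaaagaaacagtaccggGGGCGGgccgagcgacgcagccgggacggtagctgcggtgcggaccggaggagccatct
The upstream MALAT1 window had 73.7% G and C and 5 GC boxes, and the downstream one had 46% and 1 TATA box that begins 30 bases before the start. The TUG1 window had 67.7% G and C, with 4 GC boxes, of which a pair adjoins, 2 CCAAT boxes and 1 E-box, and no matches overlapped. Over 35116 windows of the same length, the median was 58.7% G and C. A GC box was in 45% of those windows, a CCAAT box in 34.6%, a TATA box in 11.5%, an ETS core in 10.3%, an E-box in 7.26% and a cAMP response element in 1.85%. These are letter matches and not shown to be sites.

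Cells held 29325 to 138647 endogenous UMIs (median 59689, SD 22755) and 2573 to 4717 spike-in UMIs (median 3550). The number of endogenous UMIs per spike-in UMI, here called the ratio, stands for the mRNA content of a cell and ran over 3.31-fold, from 8.99 in cell 52 to 29.8 in cell 43. Cell 52 stood apart: mitochondrially encoded rows made up 18.7% of its endogenous UMIs, against a median of 5.41% and a highest value of 9.59% in the other 46 cells. Results that rest on it are given with and without it. Of the markers of other cell types most had no row: 3 of 8 blood and immune markers had a row, with 20 UMIs in all, as did 2 of 8 fibroblast markers with 13 UMIs and 3 of 8 kidney epithelium markers with 42 UMIs. Of the neuronal markers 4 of 8 had a row, with 617 UMIs, 462 of them of the neurofilament gene NEFM.

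MALAT1 had by far the most UMIs of the 4 RNAs and was the only one with a UMI in each of the 47 cells. Its count was 5 in the lowest cell, 95 in the median cell and 257 in the highest, with a mean of 95.1 ± 63.5 UMIs (SD, n = 47 cells). With 4468 UMIs in all it ranked 108 among the genes. As a share of endogenous UMIs it made up 0.153% over all cells (exact binomial 95% interval 0.149% to 0.158%, counting error only). The share ran from 0.0112% in cell 34 through a median of 0.146% to 0.474% in cell 52, a 42.2-fold range. Cells 34, 56, 17 and 87 were lowest, with 5, 10, 7 and 7 UMIs, and cells 52, 31 and 27 were highest, with 155, 145 and 217. Cells 52 and 31 stood above a step to 0.364% in cell 27, and the other shares filled the range below it.

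NEAT1 had 339 UMIs and was detected in 43 of 47 cells. Its count was 0 in the lowest cells, 5 in the median cell and 38 in the highest, cell 62, with a mean of 7.21 ± 7.49 UMIs. Its share was 0.0116% over all cells (0.0104% to 0.0129%), with a median of 0.00898%. The highest shares were 0.052% in cell 52, 0.0478% in cell 31 and 0.042% in cell 35, so the same pair of cells led for NEAT1 and MALAT1. The 4 cells without a NEAT1 UMI, 8, 15, 28 and 85, held 61, 87, 49 and 52 MALAT1 UMIs. In order of MALAT1 share they were 31, 37, 18 and 15 from the lowest of 47, so none was among the lowest MALAT1 cells.

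KCNQ1OT1 and TUG1 were rare, with 62 and 61 UMIs. KCNQ1OT1 was seen in 24 cells, with a median of 1 UMI, 7 at most in cells 3 and 43, and a mean of 1.32 ± 1.93. Its share was 0.00212% over all cells (0.00163% to 0.00272%), and its highest shares were 0.0183% in cell 52, from 6 UMIs, and 0.0126% in cell 3. TUG1 was seen in 30 cells, with a median of 1 UMI, 10 at most in cell 57, and a mean of 1.30 ± 1.83. Its share was 0.00209% (0.00160% to 0.00268%), highest at 0.0146% in cell 57. Had their UMIs been spread in proportion to depth, KCNQ1OT1 would have been seen in 33.1 cells and TUG1 in 32.9, and NEAT1 in 46.8. At the depth of the shallowest cell, 16.9 cells would show KCNQ1OT1, 20.1 TUG1, 39.2 NEAT1 and 47 MALAT1, from the hypergeometric formula. A count of 0 allows a share of up to 0.00216% in the deepest cell and 0.0102% in the shallowest, so a cell without a UMI is not shown to lack either RNA.

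Divided by spike-in recovery, these counts correspond to a median of 546 MALAT1 molecules per cell (mean 528 ± 331), from 31.2 in the lowest cell to 1167 in cell 27. The medians were 27.3 for NEAT1 (mean 38.8 ± 38.5), 4.72 for KCNQ1OT1 (7.44 ± 10.7) and 5.50 for TUG1 (7.37 ± 9.92). For KCNQ1OT1 the median of the 46 cells other than cell 52 was 2.36 molecules, from 0.5 UMIs. The estimate takes these RNAs to be counted as efficiently as spike-ins, which have poly(A) tails. It therefore does not give the order of their true levels. Whether the 2 rare RNAs differed in level was not tested.

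**Figure D1:**
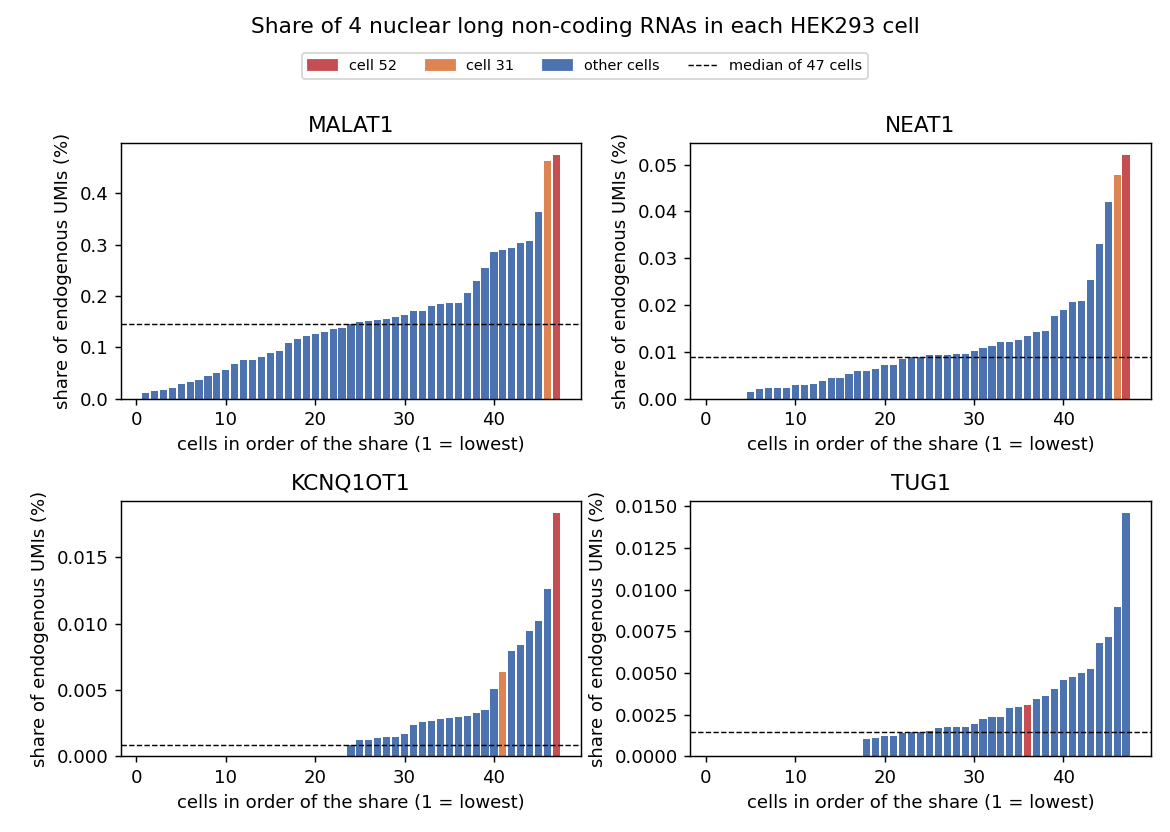
Share of endogenous UMIs (y axis, percent, its own scale in each panel) of MALAT1, NEAT1, KCNQ1OT1 and TUG1 in 47 HEK293 cells in order of that share (x axis); 1 bar is 1 cell and the dashed line is the median. Cell 52 is highest for MALAT1, NEAT1 and KCNQ1OT1 and ranks 12 from the highest for TUG1, and cell 31 is next to it for MALAT1 and NEAT1.

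By the index of dispersion MALAT1 was among the highest genes in the table. The index of dispersion, the chi-square of a gene's counts against each cell's endogenous total divided by its degrees of freedom, is 1 under counting error alone. It was 36.3 for MALAT1, 5.99 for NEAT1, 3.29 for KCNQ1OT1 and 2.4 for TUG1, against a median of 2.00 for all genes. Spike-ins, measured the same way against their own totals, had indices of 0.757 to 3.97 with a median of 2.11 (52 spike-ins with at least 20 UMIs). MALAT1 and NEAT1 thus lay above every spike-in, as did 3.21% of the 9088 genes, while KCNQ1OT1 was below 4 spike-ins and TUG1 below 16. MALAT1 ranked 11 of 9088. Above it were the histone gene HIST1H4C and 9 mitochondrially encoded rows, so that among the 9056 other rows it ranked 2. NEAT1 ranked 83, KCNQ1OT1 707 and TUG1 2582. Without cell 52 the ranks were 7 for MALAT1, 107 for NEAT1, 1659 for KCNQ1OT1 and 2328 for TUG1.

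For a given relative spread the index rises with abundance, so spike-ins of like abundance are the nearer measure of technical spread. Within 1.5-fold of the mean of NEAT1 there were 6 spike-ins with indices of 1.61 to 3.41, below its 5.99. Within that range of the 2 rare RNAs were 9, at 1.69 to 3.08: KCNQ1OT1 was above this range and TUG1 inside it. For MALAT1 there was 1 such spike-in, at 1.48. The coefficient of variation of the share was 0.711 for MALAT1, 1.04 for NEAT1, 1.62 for KCNQ1OT1 and 1.30 for TUG1, counting error included. The squared coefficient of variation beyond counting error, the index less 1 over the mean count, was lowest of the 4 for MALAT1: 0.371, against 0.692 for NEAT1, 1.08 for TUG1 and 1.74 for KCNQ1OT1. It still holds technical spread: the 9 spike-ins near the 2 rare RNAs had a median index of 2.14, also above 1. The order of these 4 values is therefore not an order of spread between cells beyond the technical one. Without cell 52 the indices were 32.9 for MALAT1, 5.31 for NEAT1, 2.69 for KCNQ1OT1 and 2.47 for TUG1. MALAT1 and NEAT1 were then still above every spike-in, as were 3.68% of genes. KCNQ1OT1 was then inside the range of spike-ins of like abundance. TUG1 rested on cell 57: without it the index was 1.51, under the median of all genes.

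**Figure D2:**
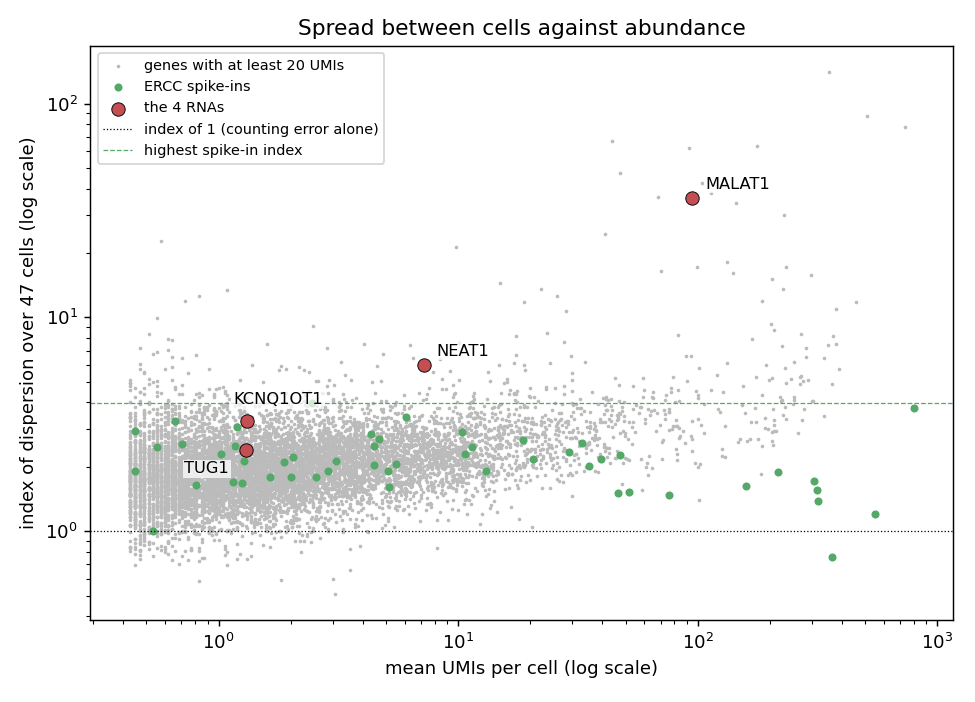
Index of dispersion over 47 cells (y axis, log scale) against mean UMIs per cell (x axis, log scale) for 9088 genes (grey), 52 ERCC spike-ins (green) and the 4 RNAs (red). MALAT1 at 36.3 and NEAT1 at 5.99 lie above the dashed line of the highest spike-in, 3.97, and KCNQ1OT1 and TUG1 lie below it.

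MALAT1 and NEAT1, which lie next to each other on chromosome 11 with 52.1 kb between them in the GENCODE annotation, had the highest correlation of the 6 pairs over all 47 cells. Levels were compared as log2(1 + UMIs scaled to the median total), over 47 cells that share 1 library pool, 1 run and this scaling. Spearman's rho of MALAT1 and NEAT1 was 0.40 (Pearson's r 0.34), and 0.36 (0.28) without cell 52. Leaving out any 1 cell gave rho from 0.36 to 0.45. Of the 9087 other genes tested, 50 had a higher rho with MALAT1 than NEAT1 did, and 83 had a higher rho with NEAT1 than MALAT1 did. The 52 spike-ins, scaled here to the endogenous total like the genes, had rho of -0.25 to 0.39 with MALAT1 and -0.30 to 0.31 with NEAT1. Scaled so, a spike-in level holds the inverse of the ratio, so these values do not stand for technical spread alone. Spearman's rho was 0.36 in the 30 cells numbered up to 48 and 0.57 in the 17 above. In the 30 cells it was below KCNQ1OT1 with TUG1 at 0.52 and MALAT1 with KCNQ1OT1 at 0.39. On shares with no log, r was 0.58, and 0.46 without cell 52 and 0.28 without cells 52 and 31, so the size of that r rested on those 2 cells.

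The other pairs were weaker, and with counts of mostly 0 to 2 a weak correlation is no finding. KCNQ1OT1 had rho of 0.27 with MALAT1 (r 0.27), 0.22 with NEAT1 (r 0.29) and 0.26 with TUG1 (r 0.23). Without cell 52 these were 0.21, 0.16 and 0.23. The value with TUG1 was 0.52 in cells numbered up to 48 and changed sign to -0.18 above. TUG1 had rho of 0.08 with MALAT1 (r 0.00) and -0.04 with NEAT1 (r -0.07), and 0.05 and -0.08 without cell 52. The mean of the 6 pairs was 0.20, and 0.16 without cell 52, with 5 of 6 above 0 either way. The 52 spike-ins, scaled to the endogenous total as above, had rho of up to 0.50 with KCNQ1OT1 and up to 0.31 with TUG1.

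**Figure D3:**
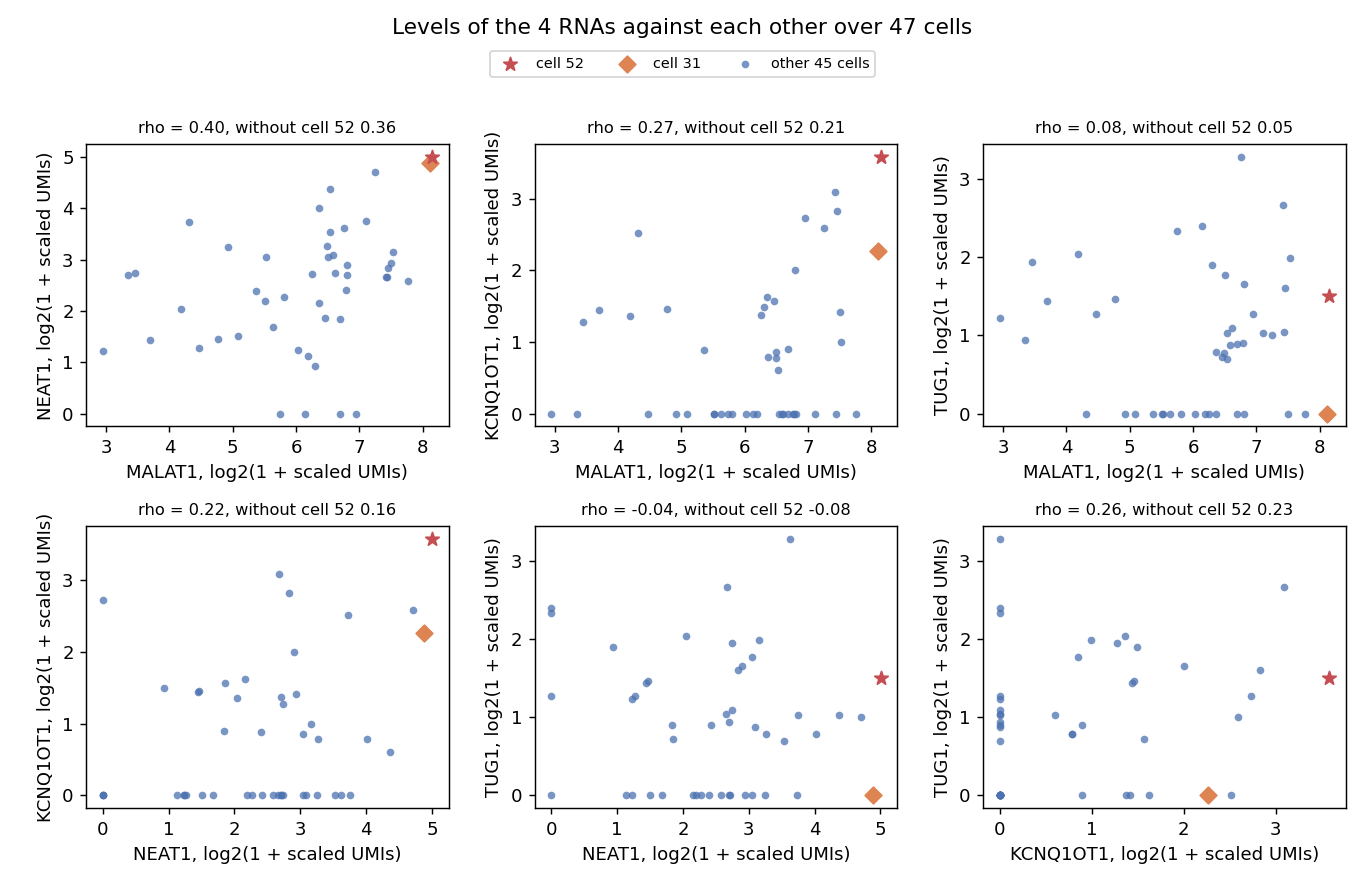
Levels of the 6 pairs of RNAs over 47 cells, both axes log2(1 + UMIs scaled to the median total), with cell 52 (star) and cell 31 (diamond) marked and Spearman's rho above each panel. MALAT1 and NEAT1 have the highest rho, 0.40, with cells 52 and 31 at the upper right, and many cells lie at 0 in the panels of KCNQ1OT1 and TUG1.

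None of the 4 shares passed a rho of 0.3 in size with the ratio. Spearman's rho was 0.15 for MALAT1 (r 0.19), 0.17 for NEAT1 (r 0.12), -0.08 for KCNQ1OT1 (r -0.21) and -0.15 for TUG1 (r -0.07). Of all 9088 genes 10.9% had a rho of at least 0.3 and 0.946% one of at most -0.3, with a median of 0.11. The share has the endogenous total below and the ratio has it above, which the points share. Without cell 52 rho was 0.23 for MALAT1, 0.25 for NEAT1, -0.02 for KCNQ1OT1 and -0.12 for TUG1. Cells 52 and 31 had the 2 lowest ratios, 8.99 and 9.89, and the 2 highest MALAT1 and NEAT1 shares. Without both, rho was 0.31 for MALAT1 and 0.33 for NEAT1 (r 0.41 and 0.38), 0.04 for KCNQ1OT1 and -0.17 for TUG1.

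Scaled to spike-ins instead, MALAT1 and NEAT1 were higher in cells with more mRNA. The slope of log UMIs per spike-in UMI on the log ratio, 1 for an RNA in proportion to the total and 0 for a fixed amount per cell, was 0.92 ± 0.34 for MALAT1 and 1.2 ± 0.49 for NEAT1 (approximate SE over cells, from the index), against a median of 1.09 for all genes (middle 95% of genes -0.40 to 2.66). Without cell 52 it was 1.19 for MALAT1 and 1.70 for NEAT1, and without cell 62, which had the most NEAT1 UMIs, it was 0.62 for NEAT1. For TUG1 it was 0.67 ± 0.74, and 0.70 without cell 52. For KCNQ1OT1 it was -0.10 ± 0.86, with a sign that rested on cell 52: without that cell it was 0.71. It was -0.93 without cell 43, so the 62 UMIs of KCNQ1OT1 do not fix a slope. Spearman's rho of the spike-in scaled level with the ratio was 0.39 for MALAT1 and 0.35 for NEAT1 (0.45 and 0.43 without cell 52), with spike-in UMIs below in both measures. For KCNQ1OT1 and TUG1 it was -0.01 and 0.03.

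Cells with little mRNA held both low and high amounts of MALAT1. Of 14 cells with a ratio under 14, a limit chosen after the values were seen, 11 had 1.56 to 23.2 MALAT1 UMIs per 1000 spike-in UMIs, under the median of 27.3 over all cells. The other 3 were cells 52, 31 and 23, with 42.6, 45.7 and 32.4. The 33 cells with a higher ratio had 2.53 to 58.3, and 20 of them were above the median.

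**Figure D4:**
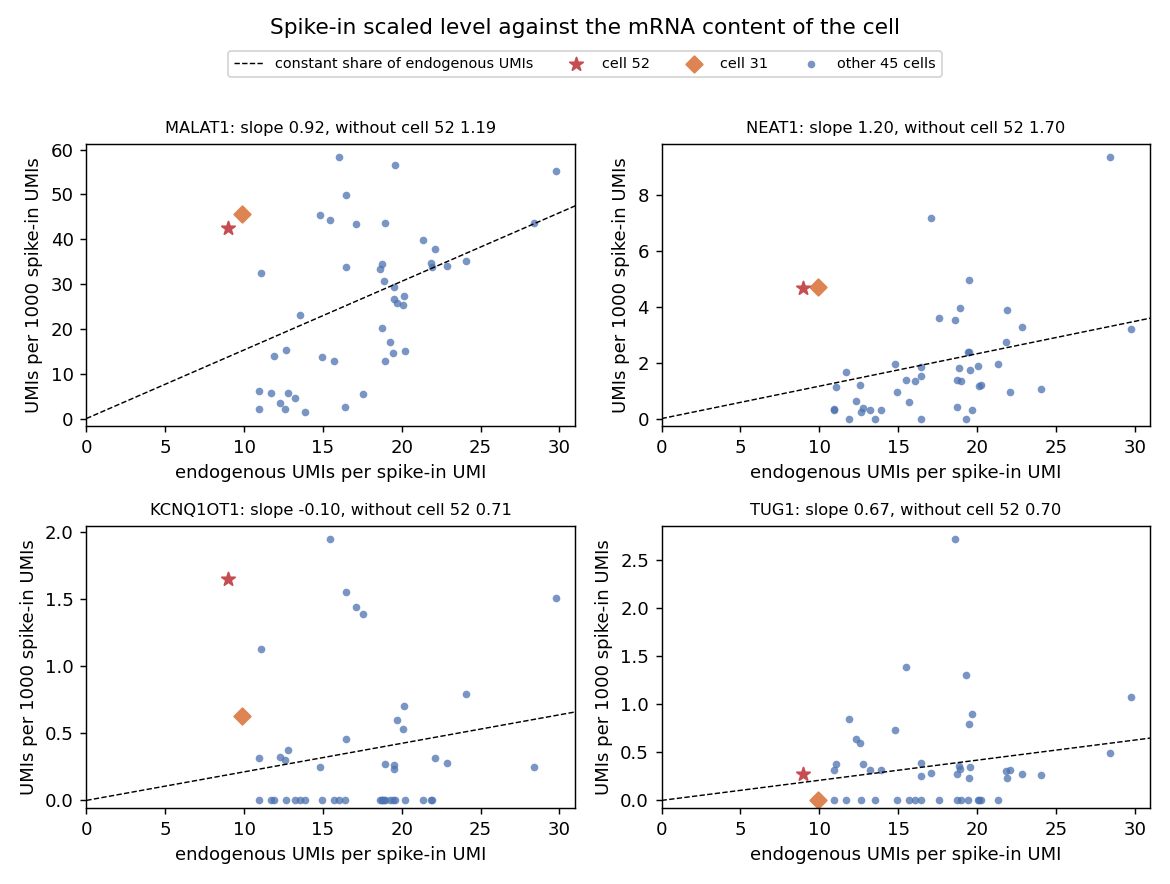
UMIs per 1000 spike-in UMIs (y axis) against endogenous UMIs per spike-in UMI (x axis) in 47 cells for each RNA, with a dashed line for a constant share of endogenous UMIs and the slope above each panel. Cells 52 and 31, with ratios of 8.99 and 9.89, lie far above the line for MALAT1 and NEAT1 with 42.6 and 45.7 MALAT1 UMIs per 1000 spike-in UMIs, while the other cells of low ratio mostly lie below it.

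In cell 52, 3 of the 4 RNAs had their highest share, but the amounts were not the highest. Its MALAT1 share was 0.474%, against a median of 0.141% in the other 46 cells. Leaving mitochondrial RNA out of the total, the share was 0.583% in cell 52, against 0.148% in the others, and cell 52 still ranked 1 for MALAT1, NEAT1 and KCNQ1OT1. Per 1000 spike-in UMIs it had 42.6 MALAT1 UMIs, against a median of 27 and a highest value of 58.3 in the others, and ranked 11. NEAT1 had 4.67 in cell 52, against a median of 1.36 and a highest value of 9.36, and ranked 5. KCNQ1OT1 had 1.65, against a median of 0.118, and ranked 2, from 6 UMIs. TUG1 had 0.275, against a median of 0.281. Cell 31 also had a high MALAT1 and NEAT1 share, and mitochondrially encoded rows took 6.88% of its UMIs. Whether the low content of these 2 cells or their mitochondrial RNA had a part in the high shares was not tested.

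Several other measures of a cell went with the NEAT1 share. NEAT1 had rho of 0.45 with the number of genes expected at the smallest total (r 0.45), 0.36 with spike-in recovery (r 0.34) and -0.39 with the share of 80 cytosolic ribosomal protein rows (r -0.47). The median rho of all genes with these 3 measures had the same signs, at 0.13, 0.10 and -0.10. Without cell 52 the NEAT1 values were 0.44, 0.36 and -0.35. For MALAT1 the same 3 were 0.08, 0.02 and 0.14, and rho with the share of HIST1H4C, a histone H4 mRNA that rises in S phase, was 0.24, and -0.13 for NEAT1. Spearman's rho with the share of the 13 mitochondrially encoded mRNAs was 0.00 for MALAT1, -0.08 for NEAT1, 0.02 for KCNQ1OT1 and 0.25 for TUG1. The part of these measures in the NEAT1 correlations below was not tested.

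Among the 1830 genes with a mean of at least 5 UMIs per cell, the level most like MALAT1 was that of XIST, the nuclear RNA that coats the inactive X chromosome, with rho of 0.52 (0.49 without cell 52). XIST overlaps its antisense partner TSIX, and no use of strand in the counting is given, so its reads may include both. It was also among the 3 highest for NEAT1, with rho of 0.45 (0.41 without cell 52), and had 0.16 with KCNQ1OT1 and 0.05 with TUG1. After XIST came NDUFB9, a subunit of respiratory complex I (32.1 ± 16.8 UMIs, rho 0.49), and RP11-343H5.4 (12.9 ± 9.02 UMIs, rho 0.46) for MALAT1. For NEAT1, MRPS12, a mitochondrial ribosomal protein (12.2 ± 7.66 UMIs), and FUOM, a fucose mutarotase (5.64 ± 3.83 UMIs), led with 0.49 and 0.46.

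At the other end for MALAT1 were 3 mRNAs of mitochondrial proteins encoded in the nucleus: the prohibitin PHB2 with rho of -0.53, the import channel TOMM40 with -0.53 and the cyclophilin PPIF with -0.53. Without cell 52 they were -0.50, -0.59 and -0.51. For NEAT1 they were NDUFAF4, a complex I assembly factor (rho -0.48), CCDC124 (-0.47) and the nucleolar protein gene LYAR (-0.44). NDUFAF4 was also low where MALAT1 was high (rho -0.47). These are extremes out of 1830 values, and spike-ins scaled to the endogenous total reached 0.39 with MALAT1.

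The rare RNAs had extremes of like size. For KCNQ1OT1 the highest were MRPS11 (rho 0.43), WDR43 (0.43) and P4HB (0.41). The lowest were REXO2 (-0.50), the non-coding CRNDE (-0.45) and LARP1 (-0.44), while 1 spike-in scaled to the endogenous total had 0.50. For TUG1 the highest were the snRNP protein SNRPD2 (0.47), MT-ND1 (0.46) and RPL30 (0.39), and the lowest TMA16, the snoRNA host SNHG7 and SH3GL1 (all -0.48).

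For lists of genes from the bodies and pathways in which these RNAs act, members past a rho of 0.3 in size were counted beside the share of all genes. In lists this short, a count of a few genes or none is no finding. Of 26 paraspeckle protein genes tested, 0 had a rho of at least 0.3 with MALAT1, against 2.89% of all genes, and 0 had one of at most -0.3, against 2.78%. With NEAT1, 2 of the 26 had a rho of at least 0.3, against 5.12% of all genes, and 0 one of at most -0.3, against 1.61%. They were TARDBP, which encodes the RNA-binding protein TDP-43 (rho 0.42), and HNRNPR (0.33), and without cell 52 TARDBP alone was past 0.3, when 5.71% of all genes were. FAM98A had a rho of 0.31 with MALAT1 without cell 52, and 0.26 with it. NONO, a core paraspeckle protein, had rho of -0.28 with MALAT1 and -0.29 with NEAT1. The list's median rho was -0.01 with MALAT1 and 0.02 with NEAT1, against 0.00 and 0.05 for all genes. The most abundant members, HNRNPA1, RBMX and HNRNPR, had 59.2, 28.7 and 22.3 UMIs per cell.

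Of 28 nuclear speckle protein genes, 0 had a rho of at least 0.3 with MALAT1, against 2.89% of all genes, and 3 had one of at most -0.3, against 2.78%. The 3 were the SR splicing factors SRSF6 (-0.34), SRSF7 (-0.34) and SRSF2 (-0.31). SRSF2 was at -0.28 without cell 52, when 2.54% of all genes were at -0.3 or below. CCNL1 had 0.30 without cell 52, when 3.29% of all genes were at 0.3 or above, and 0.28 with it. SRSF3 and SON, the other abundant members with SRSF7, had 0.10 and 0.06. The list's median was -0.05 with MALAT1 and 0.05 with NEAT1. With NEAT1, 0 of the 28 had a rho of at least 0.3, against 5.12% of all genes, and 0 one of at most -0.3, against 1.61%. ALYREF was lowest with NEAT1 at -0.299.

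A list of 16 mRNAs and RNAs known for introns that stay in the nucleus, which shares several genes with the speckle list, had 4 with a rho of at least 0.3 with NEAT1, against 5.12% of all genes, and 0 of at most -0.3, against 1.61%. They were NKTR (0.47), CLK4 (0.36), GABPB1-AS1 (0.34) and the helicase gene DDX5 (0.32). DDX5 was at 0.29 without cell 52, which left 3 past 0.3 against 5.71% of all genes, and CLK4 and GABPB1-AS1 had 26 and 31 UMIs in all. The list's median was 0.20 with NEAT1, against 0.05 for all genes, and 0.12 with MALAT1, against 0.00. NKTR had 0.29 with MALAT1.

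Among 24 genes of nuclear export and decay, 2 had a rho of at least 0.3 with NEAT1, SKIV2L2, the helicase MTR4 of the nuclear exosome (0.42), and EXOSC7, an exosome subunit (0.35), against 5.12% of all genes. With MALAT1, 0 did, against 2.89%, and 1, EXOSC3, had one of at most -0.3 (-0.32), against 2.78%. Among 19 genes of polycomb complexes, G9a and DNMT1, 2 had a rho of at least 0.3 with NEAT1, CBX6 (0.36) and RBBP4 (0.33), against 5.12% of all genes, and 0 with MALAT1, against 2.89%. With TUG1, 0 of these 19 had a rho of at least 0.3 and 1, EHMT2, had one of at most -0.3 (-0.38), against 1.4% and 3.2% of all genes. With KCNQ1OT1, 0 had a rho of at least 0.3 and CBX2 had -0.41, against 1.65% and 2.38% of all genes. The 13 mitochondrially encoded mRNAs had a median rho of 0.00 with MALAT1 and -0.06 with NEAT1, none past 0.3 in either direction. With TUG1 the median was 0.26, against -0.03 for all genes, and 1 of the 13, MT-ND1, was past 0.3.

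The shares of all genes with a rho of at least 0.3 and of at most -0.3, 2.89% and 2.78% with MALAT1 and 5.12% and 1.61% with NEAT1, stand beside the counts for other non-coding RNAs too. These RNAs were put on lists by name, and where each is in the cell was not measured. The place of LINC00467, DANCR and RPPH1 on their lists was not checked, so their values do not stand for nuclear or cytoplasmic RNAs. Of 7 RNAs tested from a list of other nuclear long non-coding RNAs, LINC00467 had a rho of at least 0.3 with MALAT1 (0.32). DANCR, the most abundant at 19.9 UMIs per cell, had one of at most -0.3 with both MALAT1 (-0.39) and NEAT1 (-0.31). Without cell 52 DANCR was at -0.35 and -0.27, so that 0 of the 7 passed with NEAT1, when 1.39% of all genes did. JPX and RN7SK had -0.03 with MALAT1 each, and -0.01 and 0.14 with NEAT1. Of 17 RNAs tested from a list headed cytoplasmic and snoRNA-host, SNHG15 (0.34) and RPPH1 (0.31) passed with MALAT1. With NEAT1, SNHG1 (0.30) and RPPH1 (0.30) passed, and SNHG7 was at -0.30 with MALAT1 and -0.32 with NEAT1. RPPH1 was at 0.28 and 0.27 without cell 52. The most abundant, SNHG5, SNHG8 and ZFAS1, had 0.03, -0.01 and 0.13 with MALAT1.

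**Figure D5:**
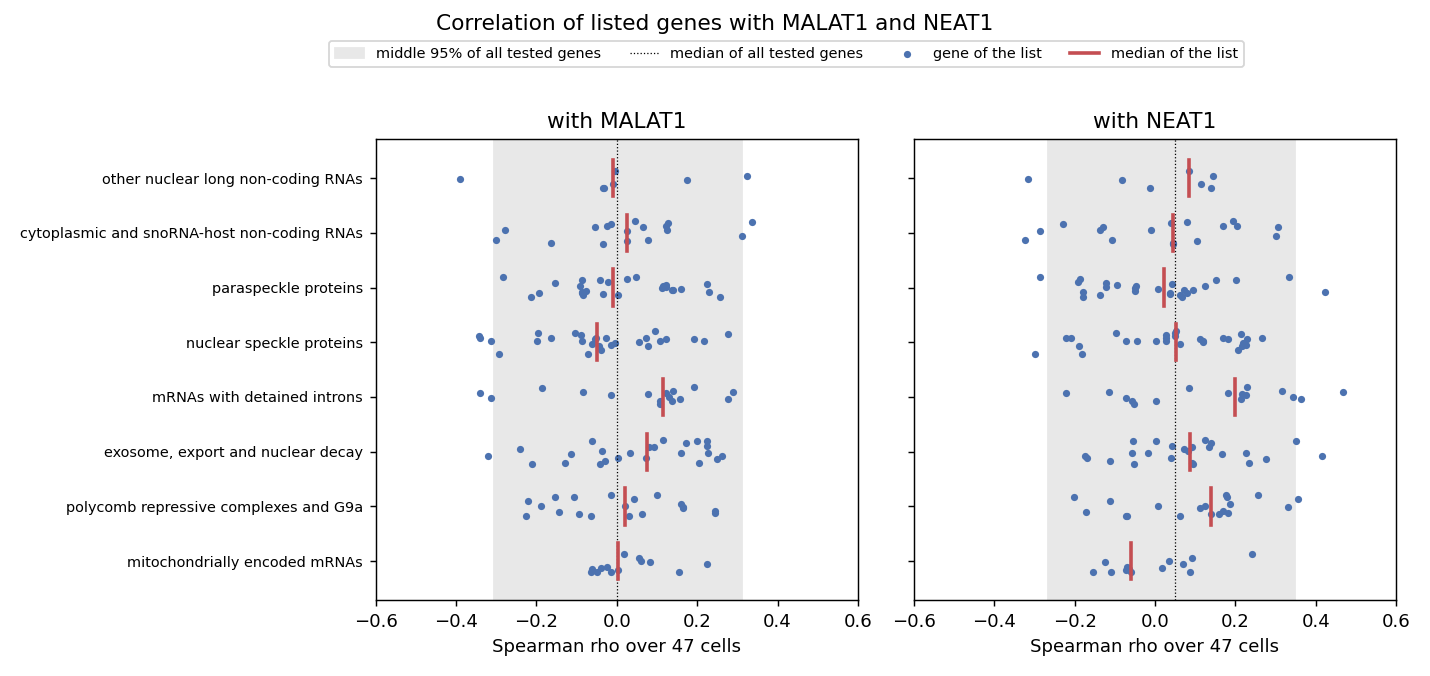
Spearman's rho over 47 cells (x axis) of the genes of 8 lists (rows, 1 point a gene, red bar the list's median) with MALAT1 (left) and NEAT1 (right), with the middle 95% of all tested genes shaded. List medians lie between -0.05 and 0.12 for MALAT1 and between -0.06 and 0.20 for NEAT1; the shaded range is that of single genes and is no yardstick for a median.

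Genes beside these RNAs in the genome were mostly rare. KCNQ1, which holds KCNQ1OT1 on its opposite strand, had 5 UMIs in 3 cells against 62 UMIs in 24 cells for KCNQ1OT1. If strand was not used in counting, reads of the pair could not be told apart. Of the imprinted genes of that domain, CDKN1C, which encodes a cell cycle inhibitor, had 17 UMIs, SLC22A18 9, and PHLDA2 292. PHLDA2 had a rho of 0.14 with KCNQ1OT1. CD81 and NAP1L4, listed with that domain and not rare, had 467 and 400 UMIs and rho of -0.01 and -0.18 with KCNQ1OT1. IGF2 and H19 had 8 and 2 UMIs. FRMD8, next to NEAT1, had 71 UMIs and a rho of 0.23 with NEAT1 and -0.27 with MALAT1. SSSCA1, the most abundant listed neighbour of MALAT1 and NEAT1 with 462 UMIs, had -0.13 with MALAT1 and -0.28 with NEAT1. None of the 6 tested neighbours of MALAT1 and NEAT1 had a rho past 0.3 in size with MALAT1 or NEAT1 over all cells. Of all genes 2.89% and 2.78% were at 0.3 or above and -0.3 or below with MALAT1, and 5.12% and 1.61% with NEAT1. With so few neighbours, a count of 0 is near those shares. FAM89B was at 0.25 with NEAT1, and at 0.30 without cell 52, when 5.71% of all genes were at 0.3 or above. MORC2 starts 947 bases from TUG1 in the opposite direction, and had 107 UMIs and rho of -0.14 with TUG1, against 0.41 with MALAT1. SELM, the most abundant listed neighbour of TUG1 with 383 UMIs, had -0.01 with TUG1.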

How the data were processed

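The deposited table holds UMI counts by gene for 47 cells, as whole numbers that the authors did not scale. Per the submitters' processing notes, cutadapt 1.2.1, STAR 2.4.0a and the builds hg19 and GRCh37 were used; the annotation, UMI collapsing, use of strand and filter on cells are not given in the sources used here. Every column matched 1 cell. A header line repeated as a row, with 0.0602% of all counts, was removed. Endogenous totals leave out 78 spike-in rows. UMIs limit the counting of PCR copies, and intervals cover counting error only. Shares, indices, correlations and slopes were computed with Python 3.11.15, numpy 2.4.6, pandas 2.3.3 and scipy 1.17.1, and TMM factors with edgeR 4.0.16. The pseudocount is 1, and 95% intervals are exact binomial. Scripts were tested on simulated data. The 4 genes, the lists and the tests were chosen with earlier results of these data known. Named are the 4 RNAs and, per RNA, the 3 genes with the highest and the 3 with the lowest rho. Also named are some of the list genes with most UMIs and some neighbours. List genes past a rho of 0.3 in size were named after their values were seen. So were NONO and ALYREF, the lowest of their lists with NEAT1. Alternatives were other scalings, cells left out, and other minimum counts.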

Additional observations from a re-analysis of the deposited data

How the results depend on the processing

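No paired analysis was possible because all cells belong to 1 group. Of 146 alternative values (other scalings, minimum counts, cells by number, cells left out), 129 stayed within a set tolerance. It was 0.151 for correlations, a relative 0.209 for indices and 1 SE for slopes. The weak correlations were no larger than that tolerance, such as rho of 0.15 for MALAT1 with the ratio. They could reach 0 or change sign and stay within it. The KCNQ1OT1 slope of -0.10 stayed within 1 SE at 0.71 without cell 52. Values within tolerance are thus not shown to be stable. Median shares were allowed 1 SD over cells, and percents of genes at other minimum counts a set fold change. For KCNQ1OT1 that SD was 0.00391% against a median of 0.000867%, so its median share could hardly leave the tolerance. The cause of the changes beyond tolerance was not tested. Leaving out cells 52 and 31, chosen after the data were seen, gave an index of 4.73 for NEAT1, rho with the ratio of 0.311 for MALAT1 and 0.332 for NEAT1, and slopes of 1.46 for MALAT1, 2.19 for NEAT1 and 0.951 for KCNQ1OT1. Leaving out cell 52 alone, which also had the highest NEAT1 share, gave a NEAT1 slope of 1.70. Without its highest cell the TUG1 index was 1.51. Pearson's r of shares with no log was 0.581 for MALAT1 and NEAT1, 0.518 for MALAT1 and KCNQ1OT1 and 0.491 for NEAT1 and KCNQ1OT1. In cells numbered above 48, KCNQ1OT1 had rho with the ratio of -0.262 and a slope of -1.43, and in those up to 48 a slope of 0.774. With a minimum of 100 UMIs, 0.271% of genes had a higher index than MALAT1 and 1.74% than NEAT1. Leaving out each cell in turn gave indices of 32.9 to 37.3 for MALAT1, 5.31 to 6.17 for NEAT1, 2.69 to 3.48 for KCNQ1OT1 and 1.51 to 2.51 for TUG1, and slopes of 0.81 to 1.19 for MALAT1, 0.62 to 1.70 for NEAT1, -0.93 to 0.71 for KCNQ1OT1 and 0.28 to 0.88 for TUG1. With 62 and 61 UMIs in 47 cells, depth limits every value of KCNQ1OT1 and TUG1.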
